A study of Homo sapiens with 18 samples.

Results

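Tubulin genes encode the building blocks of microtubules. The members described here were taken from a list of names, 4 alpha tubulin genes (TUBA1A, TUBA1B, TUBA1C and TUBA4A), 5 beta tubulin genes (TUBB, TUBB2A, TUBB3, TUBB4B and TUBB6) and the gamma tubulin gene TUBG1. All 10 were found among the 58884 gene identifiers of the count files, and all 10 passed the filter on low counts in every fit. The files hold another 13 tubulin genes outside the list, which are described further on.

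RNA was sequenced from T47D cells, a luminal, estrogen receptor-positive breast cancer cell line. Cells labelled WT (line name T47D AAV) and cells labelled PARP1 KO (line name T47D JL) were each exposed for 48 hours to DMSO, the solvent control, or to 10 μmol/L of niraparib or olaparib, which are inhibitors of the DNA repair enzyme PARP1. Each of the 6 groups held 3 libraries, 18 in all. Each genotype is represented by 1 line, and the sources used here do not say whether the knockout line is 1 clone. The study's methods describe 3 dishes per condition for its omics work and do not say whether they were grown at separate times, so the P values measure the spread between these libraries.

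Alpha and beta tubulin pair into a heterodimer, and heterodimers join end to end and side by side into the hollow microtubule of the cytoskeleton, cilium and mitotic spindle. Gamma tubulin sits in a ring-shaped complex at the centrosome and seeds new microtubules. Human cells carry several alpha and beta genes, called isotypes, whose proteins differ mainly at the C-terminal tail, the site of modifications such as glutamylation and detyrosination. TUBA1B, TUBA1C, TUBB and TUBB4B are widely expressed, TUBA1A and TUBB3 are best known from neurons, TUBA4A from platelets and neurons, and TUBB1 from platelets. Cells also adjust tubulin mRNA to the pool of unassembled dimers: when free tubulin is high, the adaptor TTC5 recognises the first residues of nascent alpha and beta tubulin on the ribosome and, with SCAPER and the CCR4-NOT deadenylase, directs decay of the mRNA.

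The coding starts of 5 members are shown because, in alpha and beta tubulin, this stretch encodes the residues read by that decay pathway. Capitals mark the first 12 coding bases, and all sequences are from the GRCh38 genome.
TUBA1B: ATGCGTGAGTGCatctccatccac
TUBA1A: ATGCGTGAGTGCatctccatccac
TUBB: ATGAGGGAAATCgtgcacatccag
TUBB4B: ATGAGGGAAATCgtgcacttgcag
TUBG1: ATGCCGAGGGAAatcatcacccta
TUBA1A and TUBA1B were identical over all 24 bases, TUBB and TUBB4B shared the 12 capital bases, and TUBG1 shared its 12 capital bases with none of the other 4.

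Over the whole coding sequence TUBA1A and TUBA1B were 97.2% identical, TUBA1B and TUBA1C 96.8%, and TUBA1A and TUBA1C 95.9%. TUBB and TUBB4B, the most abundant beta pair, were 84.4% identical and TUBB2A and TUBB3 87.7%.

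These 3 alpha genes lie close together on chromosome 12 (GRCh38), TUBA1B at 49127782-49131397 and TUBA1A at 49184795-49189080 on the minus strand and TUBA1C at 49188736-49274603 on the plus strand. TUBB (chromosome 6, 30720352-30725426), TUBB4B (chromosome 9, 137241287-137243707), TUBB6 (chromosome 18, 12307669-12344320), TUBB3 (chromosome 16, 89921392-89938761) and TUBG1 (chromosome 17, 42609683-42615238) lie on the plus strand. TUBB2A (chromosome 6, 3153666-3157544) and TUBA4A (chromosome 2, 219249710-219278170) lie on the minus strand.

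Copies limit what a count of some members means. For each gene, windows of 64 bases within its exons were searched for an exact copy elsewhere in the genome. TUBB2A had a copy for 63.2% of its windows, almost all of them in its neighbour TUBB2B (60.2%). TUBA1B had one for 23.6%, TUBA1A for 22.8% and TUBA1C for 13.8%, mainly in each other and in the pseudogene TUBAP2. TUBG1 had one for 18.6%, with 16.9% in TUBG2. TUBB reached 10.1%, TUBB4B 6.22% and TUBB3 3.19%, whereas no window of TUBA4A or TUBB6 had a copy. A read from such a window could be counted at either gene, so the split of reads within TUBA1A, TUBA1B and TUBA1C, and between TUBB2A and TUBB2B, is uncertain. TUBB3 has a further limit, since 1584 of its 4430 exon bases (35.8%) also belong to ENSG00000198211, a gene read in the same direction, and such reads were left uncounted for both.

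**Figure D1:**
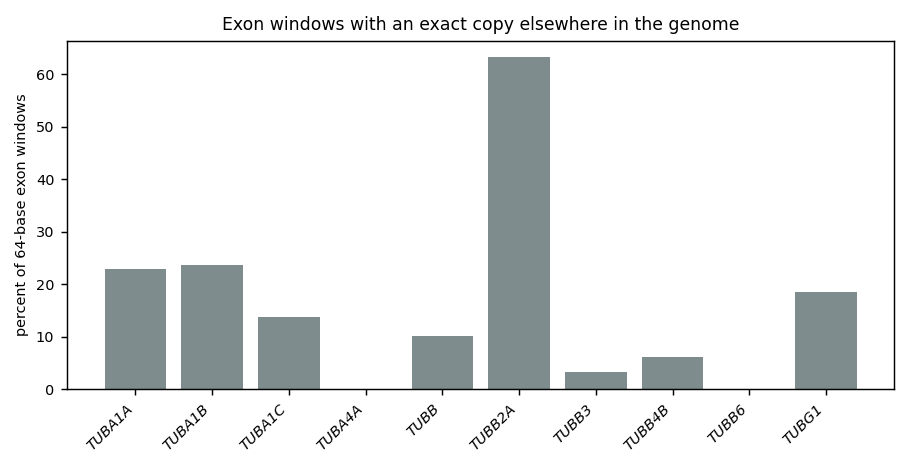
Bars give the percent of 64-base exon windows of each tubulin gene (x axis) that have an exact copy elsewhere in the genome. TUBB2A stands out at 63.2%, and TUBA4A and TUBB6 are at 0.

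Promoters are shown for the 4 members that fell with niraparib in WT cells (values below), each as the 250 bases before the transcription start in RefSeq (GRCh38.p14), 5′ to 3′ on the gene's strand. Capitals mark CCAAT (or ATTGG on the other strand), the box bound by NF-Y, and TTTGAA (or TTCAAA), the cell cycle homology region known from promoters of mitotic genes.
TUBB4B, chr9:137241037-137241286, plus strand: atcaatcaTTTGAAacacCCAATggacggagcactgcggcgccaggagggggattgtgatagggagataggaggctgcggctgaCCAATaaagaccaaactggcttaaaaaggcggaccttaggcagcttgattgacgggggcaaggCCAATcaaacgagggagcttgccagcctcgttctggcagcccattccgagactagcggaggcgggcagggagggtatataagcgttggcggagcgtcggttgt
TUBA1C, chr12:49264832-49265081, plus strand: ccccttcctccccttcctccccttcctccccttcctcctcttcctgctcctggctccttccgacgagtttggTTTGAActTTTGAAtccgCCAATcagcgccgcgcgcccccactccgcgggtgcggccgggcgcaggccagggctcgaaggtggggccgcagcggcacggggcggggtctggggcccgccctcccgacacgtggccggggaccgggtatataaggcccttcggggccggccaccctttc
TUBB, chr6:30720102-30720351, plus strand: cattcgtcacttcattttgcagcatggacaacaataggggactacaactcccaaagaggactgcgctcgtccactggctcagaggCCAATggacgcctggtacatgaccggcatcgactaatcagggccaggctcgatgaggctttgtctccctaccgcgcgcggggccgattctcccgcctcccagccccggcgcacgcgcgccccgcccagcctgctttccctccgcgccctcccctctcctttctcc
TUBA1B, chr12:49131396-49131645, minus strand: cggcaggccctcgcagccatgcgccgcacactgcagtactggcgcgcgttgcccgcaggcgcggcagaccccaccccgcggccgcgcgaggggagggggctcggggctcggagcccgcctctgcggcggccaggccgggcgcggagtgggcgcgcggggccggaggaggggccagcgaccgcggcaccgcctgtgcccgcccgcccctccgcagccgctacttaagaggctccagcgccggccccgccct
The TUBB4B stretch held CCAAT 232, 166 and 103 bases before the start and TTTGAA 242 bases before it. The TUBA1C stretch held CCAAT 160 bases before the start and TTTGAA 178 and 170 bases before it. TUBB had 1 CCAAT, 165 bases before its start, and neither motif occurred in the TUBA1B stretch. CCAAT also occurred in promoters of TUBA1A, TUBB3, TUBB6 and TUBG1, which did not pass with niraparib in WT cells, and of TUBB2B, which rose. Of 35116 RefSeq promoters of 300 bases, 34.6% held CCAAT and 15.2% held TTTGAA on either strand. Of the 15 promoters listed for the 10 members, 9 and 4 did, and these belong to 7 and 2 members. TTTGAA was found only for TUBA1C and TUBB4B. The tubulin genes may have other promoters, TUBA1C with 2 further and TUBB with 1 further entry in the same table. A match is a stretch of letters and no evidence of binding.

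Library totals were between 28890837 and 52251288 counts. Levels are given as CPM, which scales a count by its library total, and levels of different genes are compared only per length, as RPKM, which is CPM per kilobase of exon. The knockout label was checked on PARP1 itself, which was at 24.8 ± 1.34 CPM in the PARP1 KO libraries and 341 ± 17.9 CPM in the WT libraries (SD, n = 9 each). The groups did not overlap (exact permutation test, two-sided, P = 4.1e-05, the smallest these 18 libraries can give). All 8 luminal epithelial markers examined, GATA3 and KRT8 among them, were present in every library, with summed levels between 9405 and 13419 CPM. Basal, leukocyte and neuronal marker sums were at most 2.74, 0.195 and 40.9 CPM, the last almost wholly SYT1, and NEFL, ELAVL4 and the fibroblast marker FAP had no count. The fibroblast sum of 86.6 to 165 CPM was almost wholly COL1A1. Among the WT DMSO libraries, replicate 1 gave the lowest level for 9 of the 10 members, so changes against DMSO in WT cells are also given without it where that matters.

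Per length, the WT DMSO libraries held TUBB4B at 369 ± 33.2 RPKM and TUBB at 366 ± 26.6 RPKM (SD, n = 3), which overlapped. TUBA1B followed at 288 ± 17.3 RPKM. TUBA1C (78.9 ± 7.02 RPKM), TUBG1 (64.02 ± 4.42), TUBA1A (27.8 ± 3.63) and TUBB6 (10.4 ± 0.588) came next, and no neighbours in this order overlapped. TUBA4A (4.62 ± 0.733), TUBB2A (2.96 ± 0.285) and TUBB3 (0.598 ± 0.213) were lowest. Over all 18 libraries the mean RPKM of the highest and lowest alpha member differed 49.8-fold and of the beta members 649-fold. Together the 10 members took 0.227% to 0.390% of all counts in a library.

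**Figure D2:**
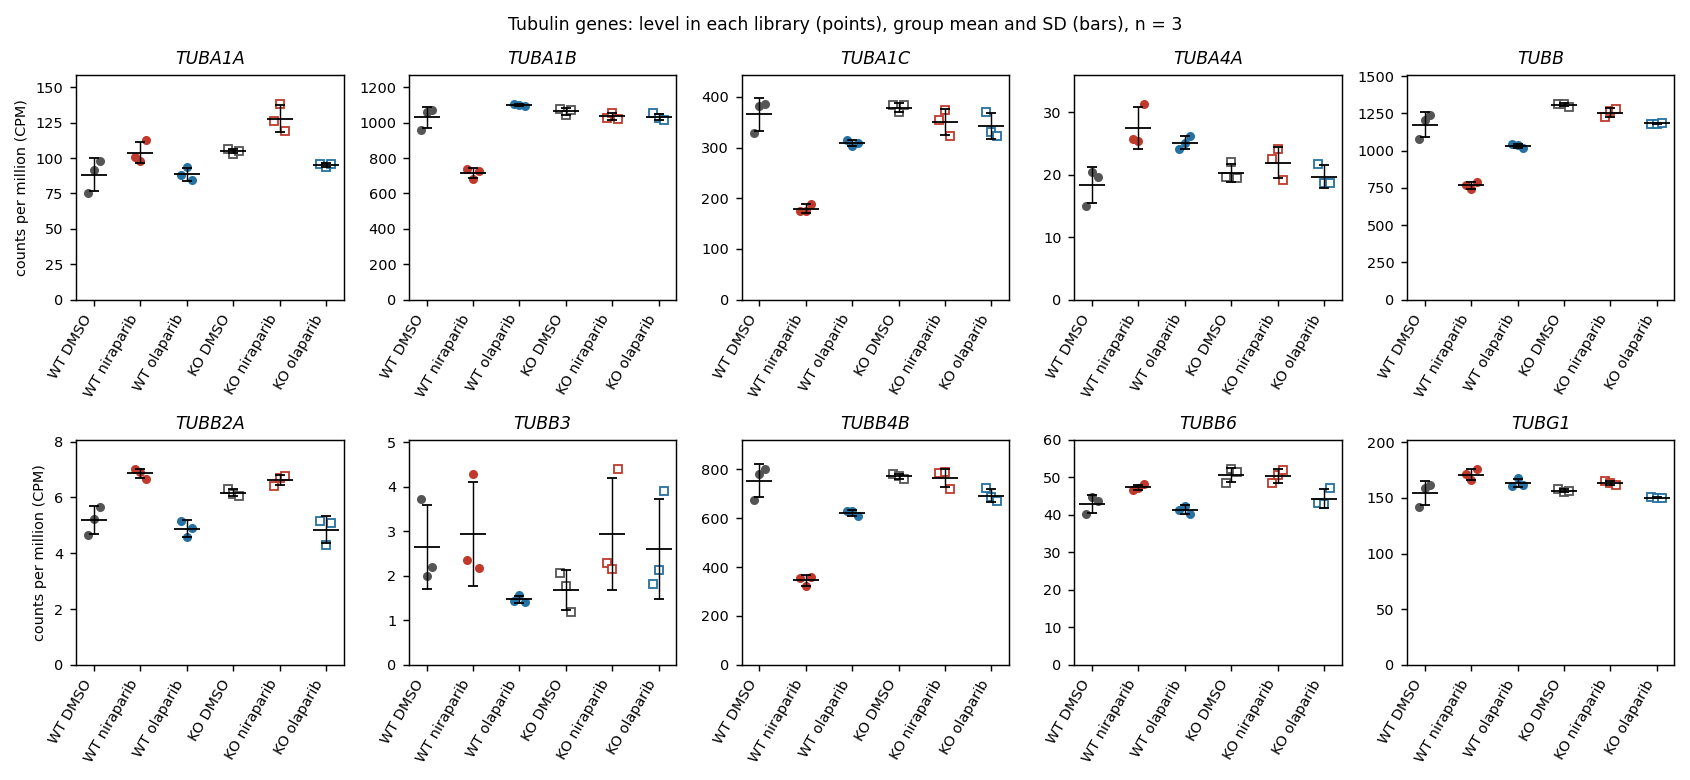
Each panel plots 1 tubulin gene, with CPM on a linear y axis from 0 and the 6 groups on the x axis (KO, PARP1 KO). Points are libraries and bars the mean and SD (n = 3). The 3 WT niraparib libraries lie below all other libraries for TUBA1B, TUBA1C, TUBB and TUBB4B.

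Niraparib lowered the abundant tubulin mRNAs in WT cells. By the fit TUBB4B fell by 56.9%, TUBA1C fell by 54.0%, TUBB fell by 38.8% and TUBA1B fell by 34.8%, TUBA4A rose, and the gamma tubulin TUBG1 and the beta tubulins TUBB6 and TUBB3 did not pass the test. The question addressed by this comparison was which transcripts respond to niraparib, and fold changes were fitted with edgeR over the 9 WT libraries, with adjustment over all 22446 genes tested. In bulk RNA, fewer cells of a kind and less RNA per cell cannot be told apart.

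Among the alpha genes, TUBA1B was at 958, 1059 and 1071 CPM in the 3 WT DMSO libraries and at 738, 683 and 729 CPM with niraparib. Every niraparib library was below every DMSO library, and the log2 fold change was -0.62 (SE 0.054, adjusted P = 6.21e-09). TUBA1C was at 328, 382 and 386 CPM with DMSO and at 176, 175 and 189 CPM with niraparib, again without overlap. Its log2 fold change was -1.12 (SE 0.058, adjusted P = 3.1e-12). TUBA4A, the least abundant alpha member, moved the other way, from 15.02, 20.4 and 19.6 CPM to 25.7, 25.5 and 31.4 CPM (log2 fold change 0.48, SE 0.11, adjusted P = 0.00255). It stayed called without WT DMSO replicate 1 (0.36, adjusted P = 0.00105). TUBA1A was at 75.6, 91.3 and 98.1 CPM with DMSO and at 101, 98.1 and 113 CPM with niraparib. These groups overlapped, and the log2 fold change of 0.14 had a 95% interval from -0.06 to 0.33 (adjusted P = 0.264). Without WT DMSO replicate 1 it was 0.040 (adjusted P = 0.674, edgeR), and without a filter on low counts it was 0.14 and passed (adjusted P = 0.0404, edgeR).

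Of the beta genes, TUBB4B gave the largest fold change of the 10 members. It was at 675, 781 and 800 CPM with DMSO and at 357, 321 and 359 CPM with niraparib, with no overlap (log2 fold change -1.21, SE 0.064, adjusted P = 2.64e-11). TUBB was at 1079, 1205 and 1241 CPM and at 771, 742 and 789 CPM, also with no overlap (log2 fold change -0.71, SE 0.054, adjusted P = 8.33e-10). TUBB2A, a low isotype, was at 4.65, 5.24 and 5.64 CPM with DMSO and at 7.01, 6.90 and 6.66 CPM with niraparib. Its log2 fold change of 0.30 (SE 0.12) passed narrowly (adjusted P = 0.0479). It no longer passed without WT DMSO replicate 1 (0.24, adjusted P = 0.148) or 2 or without any 1 of the 3 niraparib libraries (adjusted P between 0.0757 and 0.125).

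TUBB6 was at 40.1, 44.8 and 43.6 CPM with DMSO and at 46.8, 47.1 and 48.2 CPM with niraparib, and its log2 fold change of 0.05 (95% interval -0.07 to 0.17) did not pass (adjusted P = 0.568). TUBB3 rested on few reads, 76 to 221 per WT DMSO or niraparib library. It was at 3.73, 2.01 and 2.20 CPM with DMSO and at 2.37, 4.28 and 2.17 CPM with niraparib, with 1 high library in each group (log2 fold change 0.10, 95% interval -0.44 to 0.64). TUBG1 was at 142, 159 and 162 CPM with DMSO and at 171, 166 and 176 CPM with niraparib (log2 fold change 0.05, 95% interval -0.05 to 0.16, adjusted P = 0.459). Its CPM groups did not overlap, but fitted values use TMM normalization, under which the change of every gene in this comparison is 0.0937 lower on the log2 scale than with library totals.

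In all, 6 of the 10 members passed an adjusted P value of 0.05 (2 rose and 4 fell), where 38% of all genes tested did. Of these, TUBA1B, TUBA1C, TUBB and TUBB4B also changed by more than 1.5-fold, 4 of 10 members beside 13.8% of all genes. The median log2 fold change of the members was 0.05, beside -0.02 over all genes. The 4 falls and the rise of TUBA4A passed when any 1 of the 6 libraries was left out.

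**Figure D3:**
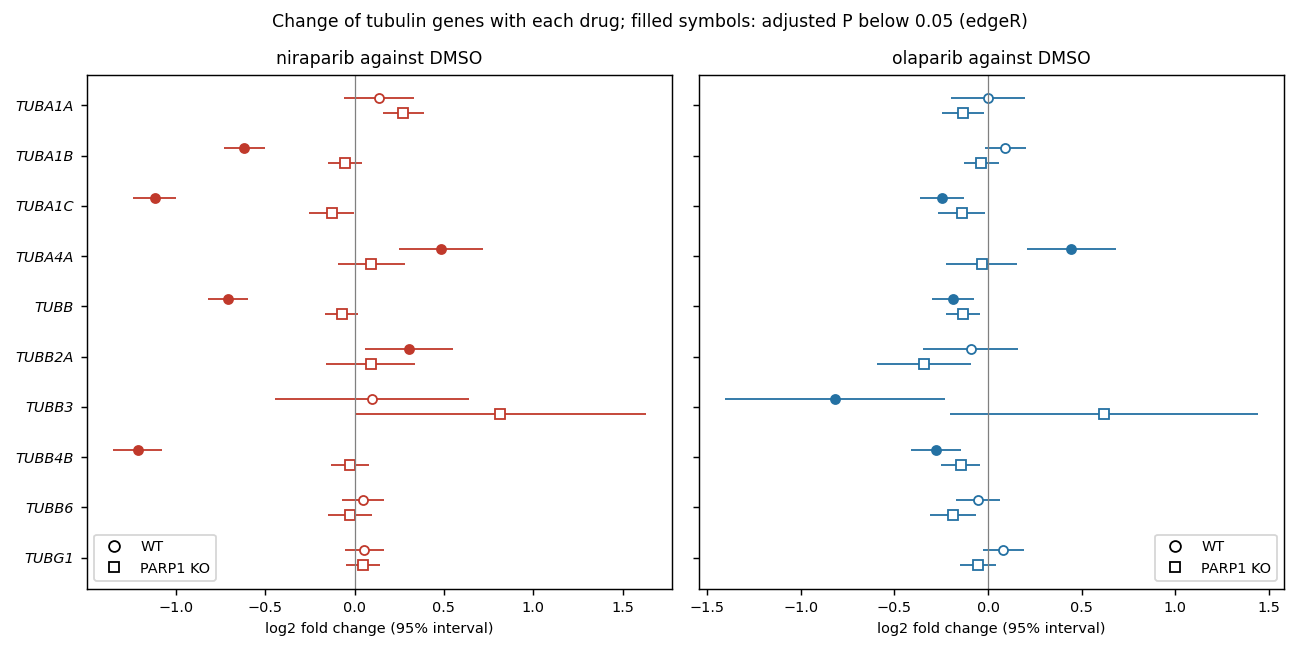
Points give the log2 fold change of each tubulin gene against DMSO with its 95% interval, for niraparib (left) and olaparib (right), in WT (circles) and PARP1 KO (squares). Filled symbols passed an adjusted P value of 0.05. The 4 large falls with niraparib in WT cells, from -0.62 to -1.21, have squares near 0.

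The makeup of each class shifted as well, described here by each gene's share of the summed RPKM of its class. TUBA1C went from 19.7 ± 0.364% of the alpha members with DMSO to 13.9 ± 0.434% with niraparib in WT cells, and TUBA1A from 6.94 ± 0.440% to 11.7 ± 0.535% (SD, n = 3). TUBA1B held 72.2 ± 0.863% and 71.9 ± 1.12%, which overlapped. Among the beta members TUBB4B went from 49.2 ± 0.504% to 39.9 ± 0.919% and TUBB from 48.9 ± 0.441% to 56.3 ± 0.720%. TUBB6 went from 1.39 ± 0.0508% to 2.71 ± 0.0995% while its own level did not pass the test. With 3 libraries against 3 an exact permutation test cannot give a two-sided P value below 0.1. No test of the shares was run, and they are given as a description. The split within the alpha trio rests in part on reads that copies share.

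**Figure D4:**
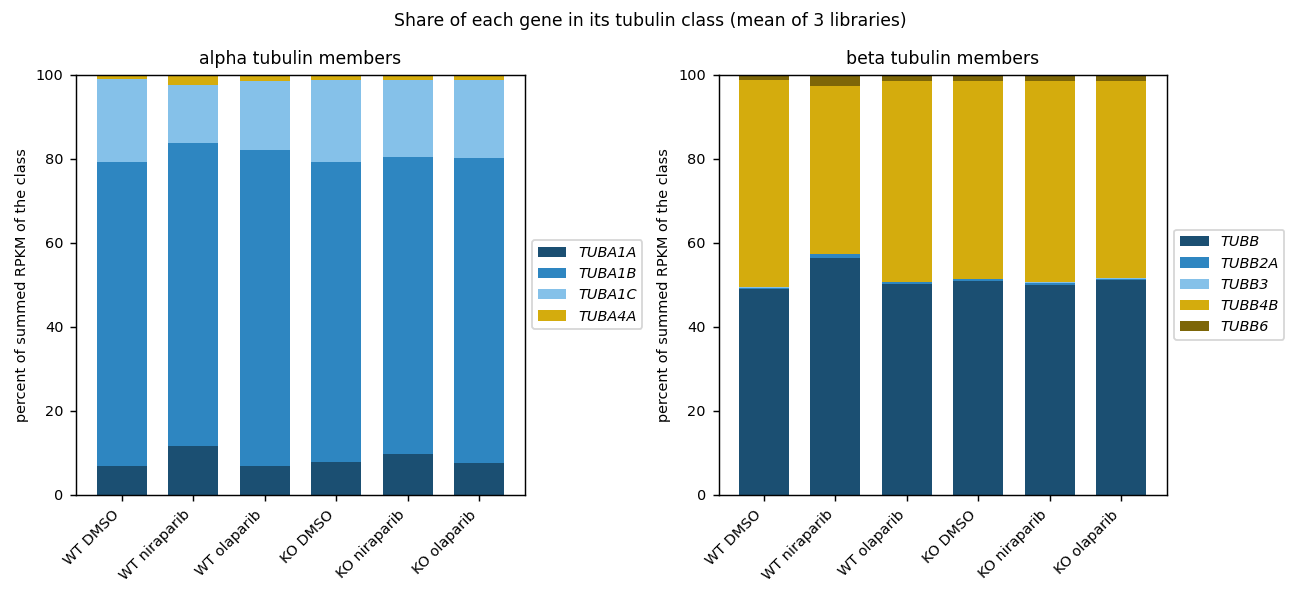
Stacked bars give the mean share (percent, n = 3) of each gene in the summed RPKM of the alpha (left) or beta (right) tubulin members, by group. TUBB4B makes up 39.9% of the beta members with niraparib in WT cells and a larger share in each of the other groups, up to 49.2%.

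Because reads of near-identical genes may be counted at either, their counts were also summed and tested as 1 feature. In WT cells with niraparib the sum of TUBA1A, TUBA1B and TUBA1C fell by 0.66 on the log2 scale (SE 0.056, adjusted P = 3.65e-09). TUBB2A and TUBB2B summed rose (log2 fold change 0.65, SE 0.11, adjusted P = 5.5e-05), and TUBG1 with TUBG2 was at 0.003 (95% interval -0.09 to 0.10). All 25 alpha tubulin genes and pseudogenes of the files summed gave -0.63 (SE 0.056, adjusted P = 7.13e-09), and all 45 beta ones -0.84 (SE 0.057, adjusted P = 1.26e-10). The 4 alpha members together were at 1502 ± 109 CPM with DMSO and 1028 ± 42.3 CPM with niraparib, and the 5 beta members at 1978 ± 155 and 1170 ± 43.3 CPM.

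In PARP1 KO cells no member passed the test with niraparib. TUBB4B was at 779, 770 and 761 CPM with DMSO and at 785, 787 and 719 CPM with niraparib, and TUBA1C at 384, 370 and 384 against 355, 374 and 323 CPM. Both pairs of groups overlapped, with log2 fold changes of -0.03 (95% interval -0.13 to 0.08) and -0.13 (95% interval -0.25 to -0.001). TUBB was at 1314, 1312 and 1295 CPM with DMSO and at 1224, 1267 and 1277 CPM with niraparib, a small shift without overlap that did not pass (log2 fold change -0.07, adjusted P = 0.669). TUBA1B was at 1079, 1043 and 1071 and at 1029, 1057 and 1022 CPM (-0.05, adjusted P = 0.775).

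TUBA1A came closest, from 106, 103 and 105 CPM to 126, 138 and 119 CPM (log2 fold change 0.27, SE 0.055, adjusted P = 0.0509). All 3 niraparib libraries were above all 3 DMSO libraries, and DESeq2 and the fit without a filter on low counts called it. The count of 0 of 10 members by edgeR compares with 0.109% of all genes tested, with 3 members at an unadjusted P value under 0.05 and 1 called by DESeq2.

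The difference between genotypes was tested directly as a genotype by niraparib interaction over all 18 libraries. The 4 falls differed between WT and PARP1 KO cells. The interaction, the change in PARP1 KO minus that in WT on the log2 scale, was 1.18 (SE 0.082, adjusted P = 4.86e-13) for TUBB4B and 0.99 (SE 0.091, adjusted P = 3.39e-09) for TUBA1C. It was 0.63 (SE 0.068, adjusted P = 4.3e-09) for TUBB and 0.56 (SE 0.069, adjusted P = 7.85e-08) for TUBA1B. The rise of TUBA4A in WT cells was not shown to differ, at -0.39 (95% interval -0.72 to -0.07, adjusted P = 0.0809), although DESeq2 called it (adjusted P = 0.045) and adjusted P ran from 0.00335 to 0.182 over the alternatives. Nor was the change of TUBB2A shown to differ, at -0.22 (adjusted P = 0.382). The sum of TUBB2A and TUBB2B, which share most windows, did pass (-0.46, SE 0.16, adjusted P = 0.027). So 4 of 10 members passed, against 22.9% of all genes, and 3 of them beyond 1.5-fold, against 8.88%. With 1 line per genotype, PARP1 loss and any other difference between the lines cannot be told apart.

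With olaparib in WT cells TUBB4B, TUBA1C, TUBB and TUBB3 fell and TUBA4A rose, and TUBA1B did not pass. TUBB4B was at 627, 628 and 608 CPM with olaparib and TUBA1C at 316, 303 and 308 CPM, both below all their DMSO libraries. They fell by 0.28 (SE 0.063, adjusted P = 0.00412) and 0.25 (SE 0.057, adjusted P = 0.00405) on the log2 scale. Summed with TUBA1A and TUBA1B, whose reads it shares in part, TUBA1C gave 0.01 (adjusted P = 0.924), a sum in which TUBA1B is the most abundant gene. TUBB was at 1043, 1036 and 1017 CPM, and its log2 fold change of -0.19 (SE 0.054, adjusted P = 0.0158) lost the call without WT DMSO replicate 2 or 3 or WT olaparib replicate 2 or 3 (adjusted P between 0.0569 and 0.102). TUBA1B was at 1106, 1100 and 1093 CPM, above all DMSO libraries, and did not pass (log2 fold change 0.09, adjusted P = 0.258).

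TUBA4A rose with olaparib to 24.2, 25.2 and 26.2 CPM (log2 fold change 0.45, SE 0.11, adjusted P = 0.0106), and without WT olaparib replicate 3 it just missed the threshold (0.42, adjusted P = 0.0503). TUBB3 fell narrowly, to 1.45, 1.56 and 1.41 CPM (log2 fold change -0.82, SE 0.28, adjusted P = 0.0488), on 45 to 58 reads per olaparib library, and no longer passed without WT DMSO replicate 1 (-0.51, adjusted P = 0.168) or 3 or without any 1 of the olaparib libraries (adjusted P between 0.0524 and 0.153). Both drugs were compared with the same DMSO libraries. In all, 5 of 10 members passed (1 rose, 4 fell) against 19% of all genes. The genotype by olaparib interaction was passed by no member (2.27% of all genes), with 2 members at an unadjusted P value under 0.05 and 2 called by DESeq2.

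Set against each other at the same dose and time in WT cells, niraparib gave lower levels than olaparib of TUBB4B (log2 difference -0.94, SE 0.064, adjusted P = 2.08e-09), TUBA1C (-0.87, SE 0.058, adjusted P = 3.27e-10), TUBA1B (-0.71, SE 0.054, adjusted P = 1.67e-09) and TUBB (-0.52, SE 0.054, adjusted P = 1.52e-07). Niraparib gave higher levels of TUBB2A (0.40, SE 0.12, adjusted P = 0.0138) and TUBB3 (0.92, SE 0.27, adjusted P = 0.0154). TUBA4A did not differ detectably between the drugs (0.04, 95% interval -0.20 to 0.27). These 6 of 10 members compare with 32.2% of all genes, and the 4 beyond 1.5-fold, TUBA1B, TUBA1C, TUBB3 and TUBB4B, with 8.95%. The TUBB3 call was lost without WT niraparib replicate 2, the high library (0.54, adjusted P = 0.12), and without WT olaparib replicate 1 or 3, and the TUBB2A call without WT olaparib replicate 2 (0.35, adjusted P = 0.0625).

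In PARP1 KO cells no member passed with olaparib against DMSO (8.29% of all genes did), although 6 had an unadjusted P value under 0.05 and DESeq2 called 3. TUBB6 came to 43.2, 42.8 and 47.2 CPM from 48.6, 52.2 and 51.4 CPM (log2 fold change -0.19, adjusted P = 0.0553), and TUBB to 1180, 1182 and 1187 CPM (-0.14, adjusted P = 0.0593). Between the drugs, 2 of 10 members passed, where 10% of all genes did. TUBA1A was higher with niraparib than with olaparib, at 95.7, 93.7 and 95.9 CPM with olaparib (log2 difference 0.41, SE 0.055, adjusted P = 0.00011). TUBB2A was also higher with niraparib, at 6.40, 6.68 and 6.78 against 5.15, 4.28 and 5.07 CPM (0.43, SE 0.12, adjusted P = 0.0237), and lost the call without PARP1 KO niraparib replicate 2 or 3 or PARP1 KO olaparib replicate 2 (adjusted P between 0.0516 and 0.123).

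Without drug, the genotypes differed little. TUBB6 was the 1 member that passed, at 48.6, 52.2 and 51.4 CPM in PARP1 KO and 40.1, 44.8 and 43.6 CPM in WT cells (log2 difference 0.25, SE 0.057, adjusted P = 0.0173). It no longer passed without WT DMSO replicate 1 (0.21, adjusted P = 0.173) or PARP1 KO DMSO replicate 2 or 3. The share of all genes that passed was 1.39%. TUBB (0.16, adjusted P = 0.0839) and TUBA1A (0.25, adjusted P = 0.103) were higher in every PARP1 KO library than in any WT library and did not pass, although DESeq2 called both. Without WT DMSO replicate 1 they were at 0.10 (adjusted P = 0.524) and 0.16 (adjusted P = 0.452).

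The tubulin genes outside the list were mostly silent or low. Of the 13, 10 had more than 10 counts in total. TUBB2B, the neighbour that shares most of TUBB2A, was at 0.957, 1.65 and 1.31 CPM with DMSO and at 3.43, 4.36 and 4.44 CPM with niraparib in WT cells (log2 fold change 1.52, SE 0.22, adjusted P = 8e-06). In PARP1 KO cells it was at 1.35, 1.39 and 1.89 and at 2.67, 1.97 and 2.31 CPM (0.56, adjusted P = 0.447), and the interaction passed (-0.96, SE 0.32, adjusted P = 0.0241) but not without WT DMSO replicate 1 (-0.81, adjusted P = 0.0684), WT niraparib replicate 3, PARP1 KO DMSO replicate 3 or PARP1 KO niraparib replicate 2 (adjusted P between 0.0514 and 0.108). TUBD1, the delta tubulin of centrioles, fell by 0.27 with niraparib in WT cells (SE 0.082, adjusted P = 0.0107) and TUBG2, the second gamma tubulin, by 0.19 (SE 0.069, adjusted P = 0.036). TUBG2 also fell by 0.24 with olaparib (SE 0.069, adjusted P = 0.0155), and both TUBG2 calls were lost without WT DMSO replicate 1 (adjusted P = 0.215 and 0.0827) and without replicate 1 of the drug used, and each without 1 further drug library.

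TUBE1, the epsilon tubulin, rose with olaparib in PARP1 KO cells (0.44, SE 0.095, adjusted P = 0.00539). Its log2 fold change in WT cells was 0.25 (adjusted P = 0.19), and the genotype by olaparib interaction did not pass (0.20, adjusted P = 0.586). In PARP1 KO cells TUBE1 was lower with niraparib than with olaparib (-0.50, adjusted P = 0.00171). TUBB4A, TUBB8, TUBB8B, TUBB1, TUBA8 and TUBA3E passed in no comparison they were tested in, and TUBA3C, TUBA3D and TUBAL3 had at most 8 counts each over the 18 libraries. Of 52 tubulin pseudogenes in the files 11 had more than 10 counts and 2 were above 1 CPM on average, TUBA5P (18.4 CPM) and TUBBP5 (7.72 CPM). With niraparib in WT cells neither passed (log2 fold change -0.11, adjusted P = 0.268, and -0.24, adjusted P = 0.0796). TUBBP1, which shares windows with TUBB, was at 0.862 CPM on average and fell (-0.83, adjusted P = 0.0426). Pseudogene counts came to between 0.700% and 1.22% of the counts of the 10 members.

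The genes that fold, modify and use tubulin moved in both directions with niraparib in WT cells, and lists of them are given by counts, to be read beside the 38% of all genes that passed here and the median of all genes (-0.02). Of the 6 prefoldin subunits, which hand unfolded tubulin to the chaperonin, 3 rose and 2 fell, among them PFDN4 (log2 fold change -0.47, adjusted P = 6.93e-06), PFDN2 (0.29, adjusted P = 0.000134) and PFDN1 (0.23, adjusted P = 0.00314). Of the 8 subunits of the CCT chaperonin, which folds tubulin and actin, 3 rose and 3 fell, with CCT4 at -0.53 (adjusted P = 3.23e-08), CCT2 at 0.34 (adjusted P = 1.48e-05) and CCT5 at -0.26 (adjusted P = 0.000133). Of the 6 tubulin cofactors, which assemble the dimer, 1 rose and 3 fell, including TBCB (-0.34, adjusted P = 0.000147), TBCA (-0.29, adjusted P = 0.000635) and TBCD (-0.25, adjusted P = 7e-05). The list medians were 0.11, 0.03 and -0.23.

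Of the 4 genes of tubulin mRNA decay, CNOT10 of the CCR4-NOT complex (0.41, adjusted P = 4.62e-06) and SCAPER (0.26, adjusted P = 0.000837) rose, and TTC5 and CNOT11 did not pass. SCAPER rose with olaparib too, in WT (0.46, adjusted P = 6.78e-06) and PARP1 KO cells (0.31, adjusted P = 0.00843). Of the 9 further parts of the gamma tubulin ring complex 4 fell and none rose, with MZT1 at -0.69 (adjusted P = 1.14e-09), MZT2B at -0.30 (adjusted P = 0.000372) and TUBGCP3 at -0.27 (adjusted P = 0.0011), while TUBG1 itself did not pass. Of 16 tubulin-modifying enzymes 7 rose and 3 fell. The polyglutamylase TTLL11 rose (1.23, adjusted P = 1.11e-06), and of the tubulin carboxypeptidases that remove the terminal tyrosine VASH2 fell (-0.85, adjusted P = 6.11e-08) and VASH1 rose (0.60, adjusted P = 8.25e-05). Of 16 microtubule-binding proteins 6 rose and 3 fell, with the largest changes in MAP1B (1.08, adjusted P = 4.87e-06), MAPRE3 (0.79, adjusted P = 4.72e-07) and CLIP1 (0.58, adjusted P = 2.76e-09). In PARP1 KO cells with niraparib 0 of the 65 genes of these 7 lists passed by edgeR and 0 by DESeq2, with 8 at an unadjusted P value under 0.05, where 0.109% of all genes passed.

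**Figure D5:**
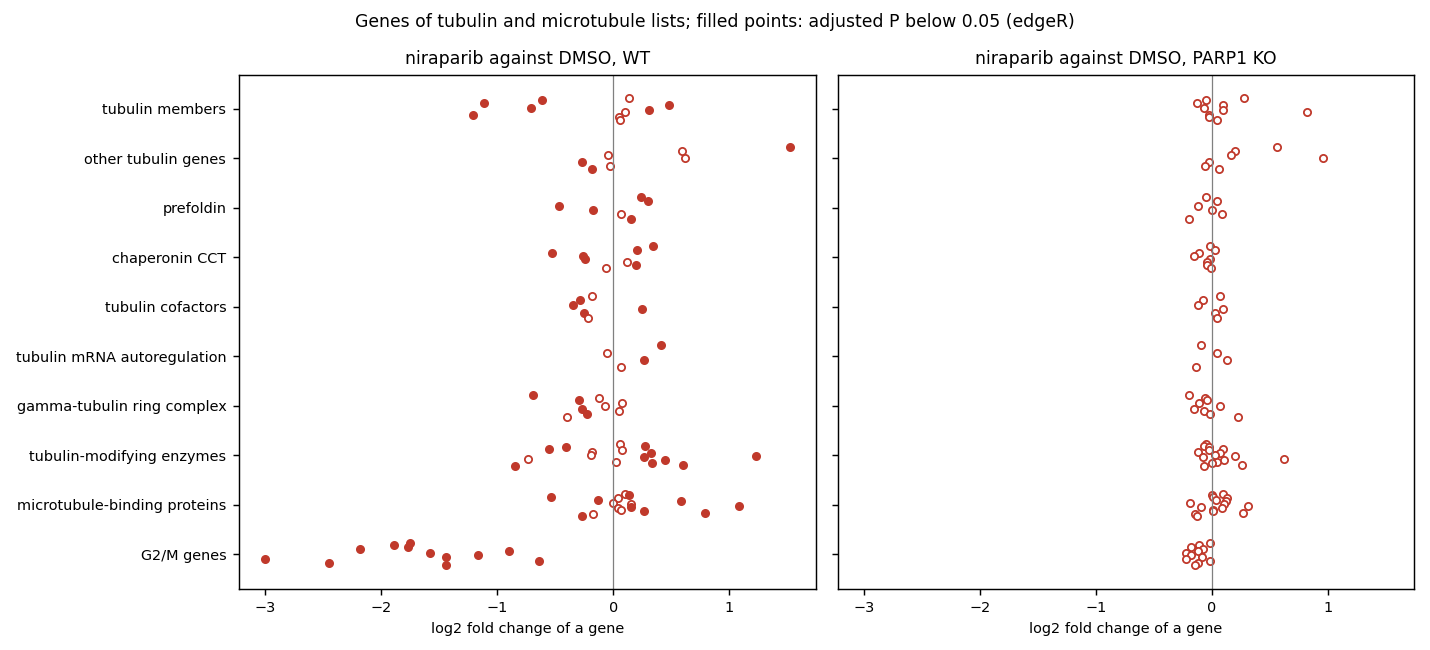
Each point is the log2 fold change of 1 gene with niraparib against DMSO (x axis), by gene list (rows), in WT (left) and PARP1 KO cells (right). Filled points passed an adjusted P value of 0.05, and TUBA8 and TUBB1, under 1 CPM, are not drawn. In WT cells the G2/M genes lie from -3.00 to -0.64 and the other lists on both sides of 0.

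Genes of the G2 and M phases of the cell cycle fell with niraparib in WT cells, as the 4 tubulin genes did. All 12 listed fell with niraparib in WT cells (median log2 fold change -1.67, beside -0.02 over all genes), with KIF20A, a mitotic kinesin, at -3.00 (adjusted P = 9.18e-18), the kinase PLK1 at -2.46 (adjusted P = 1.4e-14) and cyclin B1 (CCNB1) at -2.19 (adjusted P = 1.03e-14). Their summed level was 4287, 4635 and 4595 CPM in the WT DMSO libraries and 1810, 1735 and 1741 CPM with niraparib. With olaparib in WT cells 10 of 12 fell (median -0.44, where 19% of all genes passed), and in PARP1 KO cells 1 of 12 fell with olaparib (8.29% of all genes). With niraparib in PARP1 KO cells 0 passed by edgeR, with 3 at an unadjusted P value under 0.05 and 2 called by DESeq2. The interaction with niraparib passed for 12 of 12 (22.9% of all genes) and that with olaparib for 8 of 12 (2.27% of all genes). The part of this shift in the tubulin changes was not tested. Of the 8 luminal markers 6 fell with niraparib in WT cells (median -0.315, where 38% of all genes passed), with GATA3 at -0.74 (adjusted P = 6e-11), ESR1 at -0.56 (adjusted P = 2.18e-09) and KRT8 at -0.49 (adjusted P = 3e-07). With olaparib 6 of 8 fell in WT cells (median -0.284, 19% of all genes) and 4 of 8 in PARP1 KO cells (median -0.148, 8.29% of all genes). Of the other cell types' markers TP63, at 1.23 to 2.66 CPM over all libraries, rose with niraparib in WT cells (0.78, adjusted P = 0.00307), and SYT1 rose with olaparib (0.21, adjusted P = 0.0133).

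Members differed in how they varied together. Over the 18 libraries the log2 CPM of TUBA1C and TUBB4B had a Pearson r of 0.992, of TUBB and TUBB4B 0.980 and of TUBA1B and TUBA1C 0.943, whereas TUBA1B and TUBA1A had 0.0887 and TUBB4B and TUBA4A -0.512. TUBA1A was closest to TUBB6 (0.798). These values describe 6 groups of libraries and include the drug and genotype differences and any shared reads. Group means on the log2 scale spanned 1.26 for TUBB4B, the widest range, and 0.099 for TUBG1, the narrowest. Of 9805 genes of at least 10 CPM, those most like TUBB4B were KPNA2 (r = 0.995), CCNB1 (0.993), HMMR (0.992), PLK1 (0.992) and TUBA1C (0.992). Most like TUBB, the member with the highest mean RPKM over the 18 libraries, were HSP90AB1 (0.985), GAPDH (0.984), ACTB (0.983), SLC24A3 (0.982) and MYL9 (0.982).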

How the data were processed

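RNA sequencing counts were analysed for 18 T47D libraries, grouped by the labels. Per the file headers, the authors counted primary alignments per gene with featureCounts 2.0.0, reverse-stranded, on the Ensembl 96 annotation of GRCh38, from alignments named deduplicated, and the deposited values are raw counts. Removing duplicate reads can lower counts of abundant genes such as TUBB. Genes whose counts summed to more than 10 in the libraries fitted were tested with edgeR 4.0.16 (quasi-likelihood, TMM, R 4.3.3), on the 9 libraries of a genotype for drug comparisons and on all 18 for genotype and interaction, with Benjamini-Hochberg adjustment over all genes tested and a threshold of 0.05. DESeq2 1.42.0, other filters, other sets of libraries, a replicate block, summed near-identical genes and leaving out each library were the alternatives. On simulated counts for niraparib against DMSO in WT, 199 of 200 genes changed by 1 on the log2 scale were recovered and 11 others called. The numbers were 195 and 18 for niraparib in PARP1 KO and 186 and 10 for the interaction. The simulation gave all genes the same dispersion and changed only well-counted genes, so these numbers do not give the power for single members. The members and lists were chosen with earlier results of these data known. Named list genes are up to 3 with the largest passing change per list and comparison described. TTC5, CNOT11, TUBBP1 and the marker genes fall outside this rule and were named after their values were seen. Same-numbered libraries did not pair: 15 of 45 pairs correlated above 0.1 (median -0.058). The ends of the alpha tubulin coding sequences are not reported here.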

Additional observations from a re-analysis of the deposited data

Results flagged for a closer look

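The response to niraparib differed between WT and PARP1 KO cells for 4 of the 10 members and 1 of 10 other tubulin genes tested, beside 22.9% of all genes, by a test of the difference itself (edgeR, genotype by niraparib interaction on the log2 scale, PARP1 KO minus WT). It was 0.56 for TUBA1B (adjusted P = 7.85e-08), 0.99 for TUBA1C (adjusted P = 3.39e-09), 0.63 for TUBB (adjusted P = 4.3e-09) and 1.18 for TUBB4B (adjusted P = 4.86e-13). TUBB2B went the other way, at -0.96 (adjusted P = 0.0241), on 29 to 225 reads per library, and lost the call without WT DMSO replicate 1, WT niraparib replicate 3, PARP1 KO DMSO replicate 3 or PARP1 KO niraparib replicate 2. Summed over genes that share reads, the same test gave 0.61 for TUBA1A, TUBA1B and TUBA1C (adjusted P = 3.81e-08) and -0.46 for TUBB2A and TUBB2B (adjusted P = 0.027). All alpha genes and pseudogenes summed gave 0.58 (adjusted P = 9.49e-08) and all beta ones 0.78 (adjusted P = 8.84e-11). Beyond these sums, the part of the shift in G2/M genes, of the difference between the lines and of shared reads in these values was not tested.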

How the results depend on the processing

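The falls of TUBA1B, TUBA1C, TUBB and TUBB4B with niraparib in WT cells, and their 4 interactions, passed in every refit of the single genes. The counts of passing members moved elsewhere. For niraparib in WT cells 6 became 5 with DESeq2, 5 with a replicate block and 5 to 6 without 1 library, and it was 6 without a filter with TUBA1A gained and TUBB2A lost. For olaparib in WT cells 5 became 4 with a replicate block, 4 with all 18 libraries in the fit and 2 to 4 without 1 library. For niraparib against olaparib in WT cells 6 became 7 without a filter, 7 with only the groups compared, 5 with all 18 libraries and 5 to 6 without 1 library. In PARP1 KO cells, niraparib went from 0 to 2 without a filter, 1 with DESeq2 and 0 to 1 without 1 library, and olaparib from 0 to 2 with filterByExpr, 2 without a filter, 3 with DESeq2, 1 with all 18 libraries and 0 to 2 without 1 library. Niraparib against olaparib there went from 2 to 1 with only the groups compared and 1 to 3 without 1 library. PARP1 KO against WT with DMSO went from 1 to 3 without a filter, 3 with DESeq2, 0 with only the groups compared and 0 to 2 without 1 library. The niraparib interaction went from 4 to 5 without a filter, 5 with DESeq2 and 4 to 5 without 1 library, and the olaparib interaction from 0 to 2 without a filter, 2 with DESeq2 and 1 with only the groups compared, and stayed at 0 without 1 library. Requiring 1.5-fold left 1 member for olaparib in WT, 0 for the drugs against each other in PARP1 KO and 0 for the genotypes, and requiring an absolute log2 fold change above 1.5 left 0 in every comparison. The causes were not tested beyond the smaller number of libraries or the stricter rule.

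Some values turned sign, of which TUBA1C with olaparib in WT (-0.25) was a passing call. Summed with its near-identical genes TUBA1B and TUBA1C, TUBA1A gave a sum at -0.66 for niraparib in WT and 0.011 for olaparib in WT. The sum was at -0.67 between the drugs in WT and -0.046 for niraparib in PARP1 KO. TUBA1C summed was at 0.011 for olaparib in WT and -0.075 for the olaparib interaction, TUBA1B summed at 0.021 between the drugs in PARP1 KO and TUBB2A summed at 0.092 for olaparib in WT. TUBG1 summed was at -0.020 between genotypes and 0.039 for the niraparib interaction. A replicate block put TUBA1A with olaparib in WT at 0.0073 (the numbers do not pair the libraries), and fitting only the groups compared put TUBA1C between the drugs in PARP1 KO at -0.00074. Without 1 library, TUBB3 ranged from -0.28 to 0.41 and TUBG1 from -0.0017 to 0.085 for niraparib in WT, TUBA1A from -0.098 to 0.076 for olaparib in WT, and TUBA4A from -0.072 to 0.11 and TUBG1 from -0.050 to 0.0090 between the drugs in WT. TUBB4B ranged from -0.050 to 0.018 for niraparib in PARP1 KO and TUBA4A from -0.12 to 0.021 for olaparib. Between the drugs in PARP1 KO, TUBA1B ranged from -0.033 to 0.0074, TUBA1C from -0.034 to 0.086 and TUBB3 from -0.22 to 0.57. Between genotypes TUBA1C ranged from -0.011 to 0.10, TUBB4B from -0.029 to 0.087 and TUBG1 from -0.025 to 0.063, and the niraparib interaction of TUBG1 from -0.053 to 0.041. Of these reversed values only the sums set against TUBA1A, for niraparib against DMSO and against olaparib in WT, passed the test. TUBA1B is the most abundant gene in them and was lower with niraparib in both, so they do not give the change of TUBA1A itself.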
